A study of Danio rerio with 12 samples.

Results

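The genes described here are the cathepsins, the other genes with a lysosomal name and the subunits of the V-type proton pump, measured in macrophages and endothelial end cells of the larval zebrafish brain. They were chosen by the gene descriptions in the deposited tables, which had to contain the words cathepsin, lysosom or V-type proton ATPase. Of 33737 genes, 102 were described so, and the 84 with an RPKM above 0 in at least 2 of 12 libraries are the members. RPKM are reads scaled by the length of the gene and by the reads of the library, a level that can be compared between genes. The 84 comprised 23 cathepsins, 32 other lysosomal genes, 13 subunits of the V1 sector of the pump and 16 subunits of its V0 sector or accessory subunits. GBA2 (ENSDARG00000061472) entered through its wording alone, since it is described as a non-lysosomal glucosylceramidase.

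The study followed the repair of ruptured brain vessels in zebrafish larvae of a strain given as ABGO. Macrophages came from the line Tg(coro1a:Kaeda; flk1:eGFP), in which a leukocyte promoter drives the photoconvertible protein Kaeda. Endothelial end cells came from Tg(flk1:DenNTR; coro1a:eGFP), in which the flk1 promoter of endothelial cells drives Dendra2. A 405 nm laser converted about 80 cells in 20 animals to red, and the red cells were sorted from dissected heads, so each library pooled several larvae. Macrophage control, macrophage arrival and macrophage traction had 2 Smart-seq2 libraries each, as did endothelial control, endothelial arrival and endothelial traction. Control larvae were uninjured, at arrival a macrophage had reached the lesion, and during traction it pulled on the vessel ends. Nothing in the labels ties the replicates of a group to separate pools of larvae, and p-values cover no more than the variation among these libraries, which may be technical.

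Lysosomes are acidic compartments in which material taken up from outside the cell, and worn parts of the cell itself, are broken down. Cathepsins are the proteases of this compartment, and most of them work best at the low pH that the V-type proton pump maintains. The pump has a V1 sector in the cytosol that burns ATP and a V0 sector in the membrane that passes protons. Macrophages digest what they engulf in this system, and lysosomal genes are among their characteristic transcripts.

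Reads in genes ran from 12283046 per library, in macrophage control 2, to 39447004, and 8929 to 17011 genes had an RPKM above 0. The summed RPKM of 34 macrophage markers was 7298 to 28389 in macrophages, lowest in macrophage control 2. It was 2.97 to 21.9 in 5 endothelial libraries, but 2577 in endothelial control 2. MPEG1 (ENSDARG00000055290), which encodes a pore-forming protein of macrophages, stood at 209 to 1018 RPKM in macrophages, at 22.8 in endothelial control 2 and at 0 to 0.319 in the other endothelial libraries. Endothelial markers (23 genes) summed to 29.9 to 458 RPKM in macrophages, highest in macrophage control 2, against 281 to 5610 in endothelial cells. The cadherin gene cdh5 did not exceed 0.0269 in macrophages, but not every marker went this way. Of 22 tested, 9 were lower and 1 was higher in macrophages (limma adjusted p under 0.05), and 5 had differences above 0. Of all tested genes 0.676% were lower and 2.15% higher. The summed level of 31 genes of photoreceptors and lens was 2268 RPKM in macrophage traction 1, 35839 in endothelial arrival 2 and 46561 in endothelial traction 1, called the photoreceptor libraries below, and to at most 98.1 elsewhere. Neuron markers (17 genes) were also highest in endothelial arrival 2 and traction 1, at 1877 and 1528 RPKM, with 1360 in macrophage traction 2. Epidermal markers (14 genes) summed to 1459 RPKM in macrophage control 1, 942 in macrophage traction 2 and 2173 in endothelial traction 2, and to 13.5 to 228 elsewhere. Erythroid markers (16 genes) summed to 1.86 to 131 RPKM in macrophages, against 18638 to 65976 in endothelial cells, except for 23.3 in endothelial arrival 1. Neutrophil markers (7 genes) reached 3065 RPKM in macrophage traction 1 and at most 513 elsewhere. The part of these cells in the results below was not tested, apart from the values given with and without the libraries named. In bulk libraries of this kind, fewer cells of a type and less RNA per cell cannot be told apart.

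Cathepsins were the class with most calls in the comparison of macrophages with endothelial cells, and no member was lower by the test. A gene counts as higher or lower here at an adjusted p under 0.05 from limma on log2(RPKM + 1), with lesion stage in the model and adjustment over all 17613 tested genes. Of the 73 members that passed the filter on low reads, 19 were higher in macrophages and 0 were lower, while 2.15% of all tested genes were higher and 0.676% lower. At an unadjusted limma p under 0.05 there were 38 members, against 11.3% of all tested genes. The median log2 difference of the 73 members was 2.24, and that of all tested genes was 0.19. The other 11 members did not pass the filter. They were 8 cathepsin genes, GAA, ppt2a.1 and ATP6V1C2, and apart from 1 value of ctss1 they stayed at or below 0.33 RPKM. Libraries of the 2 cell types did not overlap for 12 members, all higher in macrophages, against 1.94% of all tested genes higher in this way and 0.613% lower.

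**Figure D1:**
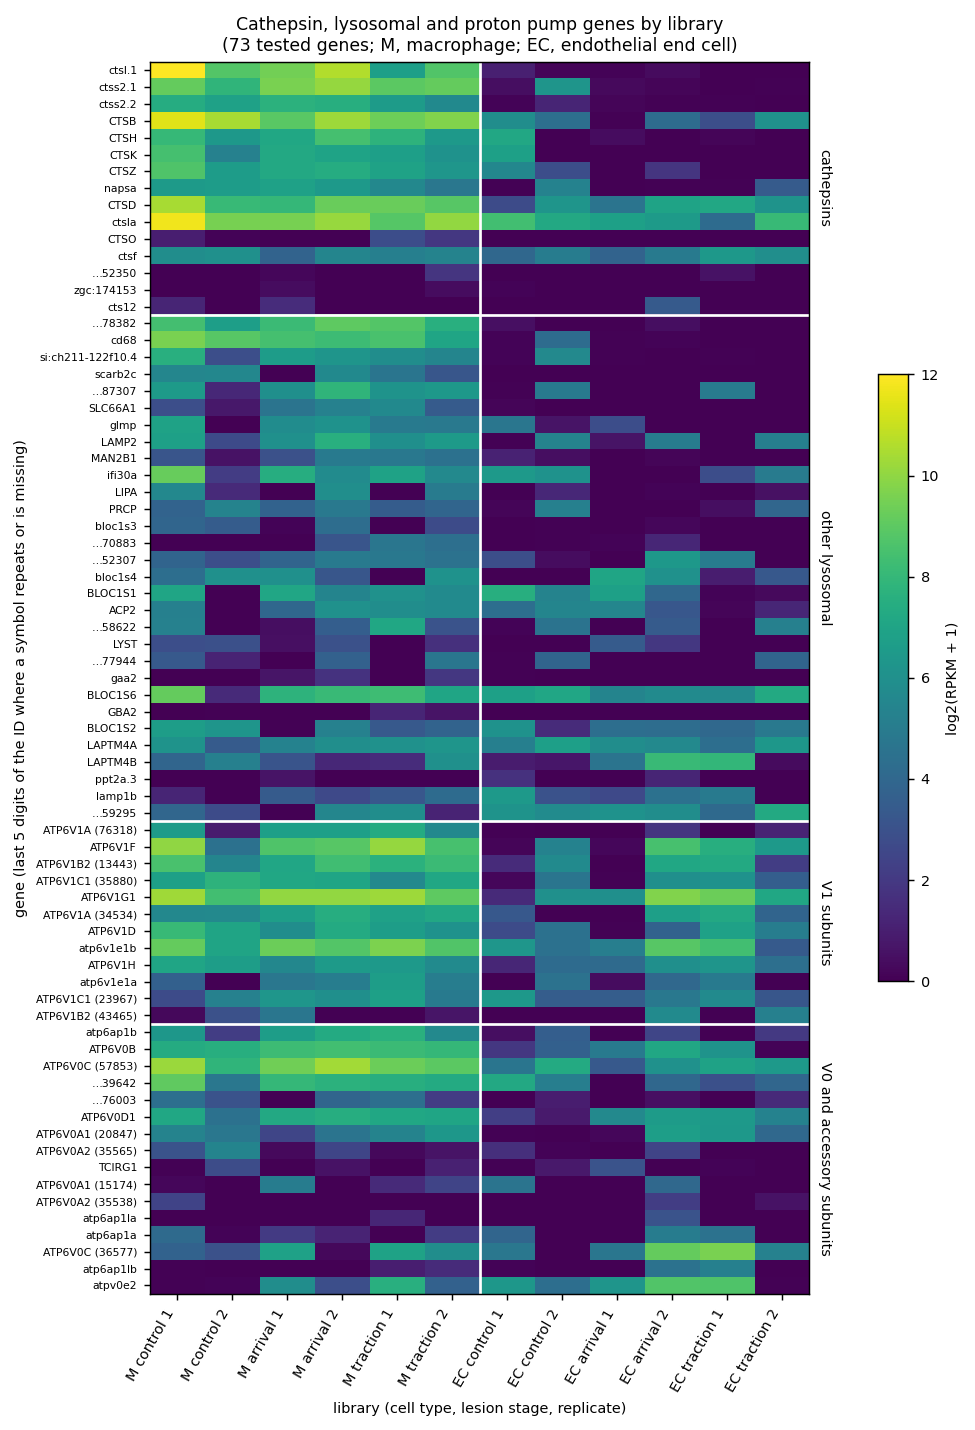
Each row is 1 of the 73 tested genes and each column 1 library, with macrophages (M) left of endothelial cells (EC) and the colour giving log2(RPKM + 1). Within each class genes run from the largest to the smallest difference, so the upper cathepsin rows are bright in all 6 macrophage columns and dark in most endothelial columns, while the lower rows of each class show no such split.

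Together the 84 members summed to 6055 to 23340 RPKM in macrophage libraries (median 10369) and 991 to 4652 in endothelial libraries (median 1769). This was 1.19% to 3.65% of all RPKM in macrophages, against 0.167% to 0.771% in endothelial cells. Of the tested members, 68.5% to 89.0% reached 1 RPKM in a macrophage library, against 38.3% to 68.4% of all tested genes. In endothelial libraries 32.9% to 64.4% of the tested members reached 1 RPKM, against 28.2% to 59.1% of all tested genes. Both shares were thus higher for the members, by more in macrophages. The median level of a tested member was 41.5 RPKM in macrophages and 1.31 RPKM in endothelial cells, where all tested genes had 0.673 and 0.0775.

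Among the cathepsins, 10 of 15 tested genes were higher in macrophages and the median log2 difference was 4.66. The largest differences were those of ctsl.1 and ctss2.1, both cysteine proteases. ctsl.1 (ENSDARG00000003902), described as cathepsin L2, stood at 108 to 4284 RPKM in macrophages (median 562) and at 0 to 1.08 in endothelial cells (median 0.105). The lowest macrophage library exceeded the highest endothelial one, and the log2 difference was 9.12 ± 0.99 (SE; limma adjusted p = 1.33e-06). Its copy ctsla (ENSDARG00000007836), described as cathepsin L1, was high in both cell types, at 449 to 3477 RPKM in macrophages (median 916) and 17.1 to 334 in endothelial cells (median 132). It was the most abundant cathepsin of endothelial cells and differed by 3.10 ± 0.71 (limma adjusted p = 0.0117), without overlap. ctsl.1 exceeded ctsla in 2 of 6 macrophage libraries and in 0 of 6 endothelial ones.

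Cathepsin S, which in mammals cleaves the invariant chain during antigen presentation, was represented by the copies ctss2.1 and ctss2.2. ctss2.1 (ENSDARG00000074656) stood at 229 to 1100 RPKM in macrophages (median 578) and at most 0.37 in 5 endothelial libraries. The remaining one, endothelial control 2, had 76.2 RPKM and is the library with macrophage markers. The cell types still did not overlap, and the difference was 7.92 ± 1.07 (limma adjusted p = 3.36e-05). ctss2.2 (ENSDARG00000013771) was lower than ctss2.1 in 6 of 6 macrophage and 5 of 6 endothelial libraries, at 51.4 to 207 RPKM in macrophages (median 146) and 0 to 1.33 in endothelial cells (median 0.0654), again highest in endothelial control 2. It differed by 6.71 ± 0.99 (limma adjusted p = 9.99e-05). A further copy, ctss1 (ENSDARG00000036940), was at 17.4 RPKM in macrophage control 1 and at most 0.0616 in all other libraries, and was not tested.

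CTSB (ENSDARG00000055120), the cysteine protease cathepsin B, had the highest median of all cathepsins in macrophages, 1026 RPKM, with a range of 492 to 2821. In endothelial cells it stood at 0.0647 to 66.8 RPKM (median 19.1). The ranges did not overlap and the difference was 6.09 ± 0.87 (limma adjusted p = 6.88e-05). A second gene described as cathepsin B (ENSDARG00000067570) was at 0 in all macrophage libraries and at most 0.025 in endothelial ones.

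The exopeptidases CTSH and CTSZ and the collagen-degrading CTSK were high in every macrophage library and in 1 endothelial library. CTSH (ENSDARG00000041108) had 83.5 to 352 RPKM in macrophages (median 180), against 146 in endothelial control 1 and at most 0.326 in the other 5 endothelial libraries. CTSK (ENSDARG00000040251), known from mammalian osteoclasts, had 37.1 to 353 RPKM in macrophages (median 117), against 112 in endothelial control 1 and at most 0.0257 in the rest. CTSZ (ENSDARG00000043081) had 77.0 to 418 RPKM in macrophages (median 135) and 46.7 in endothelial control 1, with 0 to 6.23 in the other 5. Macrophage markers summed to 21.9 RPKM in endothelial control 1, and only CTSZ of these genes kept the cell types apart in every library. The differences were 6.08 ± 1.17 for CTSH, 5.66 ± 1.18 for CTSK and 5.49 ± 1.03 for CTSZ (limma adjusted p = 0.00236, 0.00486 and 0.00177).

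The aspartic protease cathepsin D was represented by CTSD and by napsa, which carries the name of napsin A. CTSD (ENSDARG00000057698) stood at 250 to 1379 RPKM in macrophages (median 542) and 5.72 to 144 in endothelial cells (median 73.0), without overlap. Its difference was 3.33 ± 0.82 (limma adjusted p = 0.0207). napsa (ENSDARG00000009313) stood at 25.8 to 116 RPKM in macrophages (median 90.8), and in endothelial cells at 38.3 in control 2, 9.72 in traction 2 and at most 0.0647 in the other 4. The ranges overlapped and the difference was 4.66 ± 1.12 (limma adjusted p = 0.0173). CTSD exceeded napsa in all 6 libraries of both cell types.

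The other tested cathepsins did not differ by the test. ctsf (ENSDARG00000063095), a cysteine protease, stood at 12.9 to 64.5 RPKM in macrophages (median 41.3) and 13.3 to 84.5 in endothelial cells (median 30.6), a difference of 0.26 ± 0.92 (limma adjusted p = 0.936). It was the only cathepsin above 12 RPKM in every library of both types apart from ctsla. CTSO (ENSDARG00000052855) reached 6.17 RPKM in macrophage traction 1 and was listed at 0 in all endothelial libraries. The second cathepsin Z gene (ENSDARG00000052350), zgc:174153 and cts12 stayed at or below 2.57, 0.336 and 9.64 RPKM in their highest libraries. A further 6 genes described as cathepsin L1 (zgc:174154, si:dkey-239j18.2, si:dkey-239j18.3, si:dkey-26g8.5, ctslb and ENSDARG00000096563) were at most 0.201 RPKM anywhere and were not tested. No sequences of these copies were compared here, and how the counting treated reads that match several genes is not stated.

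**Figure D2:**
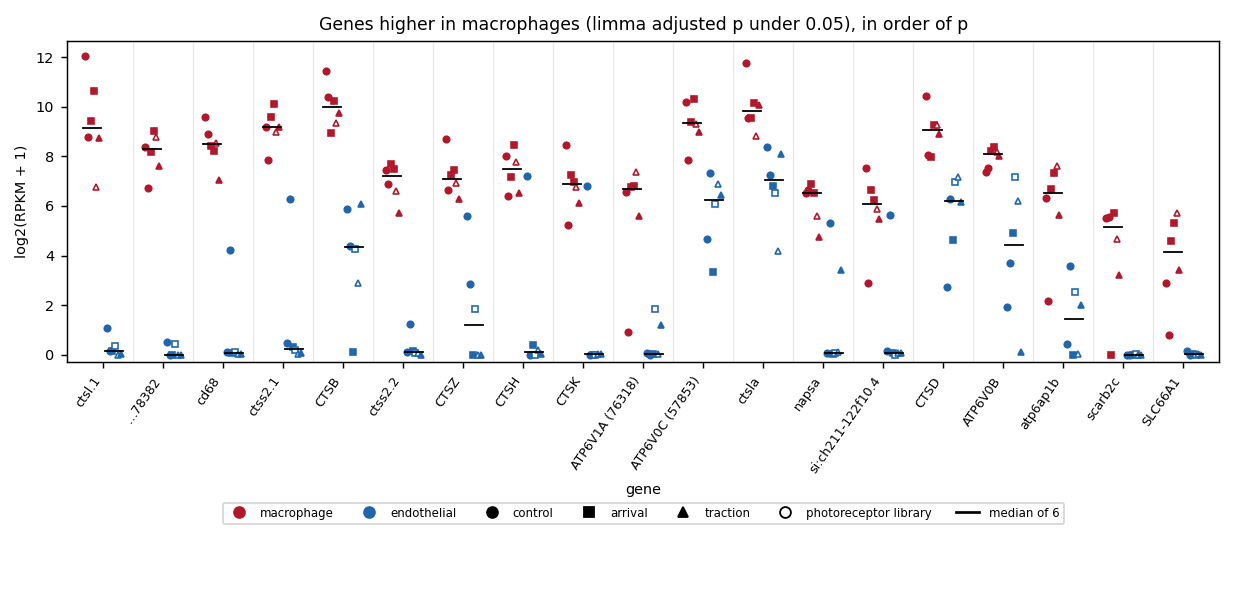
The 19 genes higher in macrophages are shown in order of p, with log2(RPKM + 1) of each library as a point, macrophages in red left of endothelial cells in blue, and a bar at the median of 6 libraries. Circles are control, squares arrival and triangles traction, and open symbols are the photoreceptor libraries. Single blue points lie high for CTSH, CTSK and CTSZ (endothelial control 1) and for ctss2.1, cd68, napsa and si:ch211-122f10.4 (endothelial control 2).

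Among the lysosomal enzymes, 2 of 11 tested genes were higher in macrophages, both described as the lysosomal protective protein. This protein, also called cathepsin A, is a carboxypeptidase that stabilises other lysosomal enzymes. ENSDARG00000078382 had 104 to 523 RPKM in macrophages (median 313) and at most 0.426 in endothelial cells, with 4 libraries at 0. Its difference of 7.96 ± 0.98 (limma adjusted p = 1.02e-05) came with no overlap. si:ch211-122f10.4 (ENSDARG00000052074) had 6.45 to 186 RPKM in macrophages (median 66.8), against 48.4 in endothelial control 2 and at most 0.0955 in the other 5. It overlapped through that library and differed by 4.80 ± 1.19 (limma adjusted p = 0.0204). The third such gene, ENSDARG00000087307, had 1.5 to 232 RPKM in macrophages and reached 29.2 and 30.6 in endothelial control 2 and traction 1, and it missed the threshold (4.04 ± 1.28, limma adjusted p = 0.102).

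Of the other tested enzymes all but ppt2a.3 had a macrophage median above 0, but levels varied among macrophage libraries. MAN2B1 (ENSDARG00000001897), which trims mannose from glycoproteins, had 0.513 to 29.2 RPKM in macrophages, against at most 1.22 in endothelial cells (limma adjusted p = 0.0993), and voom, a limma method that weights reads recovered from the RPKM, called it (voom adjusted p = 0.00976). ifi30a (ENSDARG00000056378), a thiol reductase of antigen processing in mammals, ranged from 3.42 to 595 RPKM in macrophages and from 0 to 87.8 in endothelial cells. LIPA, the acid lipase that frees cholesterol, had 0 to 60.8 RPKM in macrophages, with 2 libraries at 0, and at most 1.5 in endothelial cells. PRCP, a carboxypeptidase, and ACP2, an acid phosphatase, overlapped widely between the cell types, PRCP with 10.2 to 40.7 RPKM in macrophages, against 0.00826 to 35.9 in endothelial cells, and ACP2 with 0 to 65.4 and 0.136 to 43.9. The glucosidase gene gaa2 and the PPT2 gene ppt2a.3 stayed at or below 2.81 RPKM. The median log2 difference of the 11 enzymes was 2.66.

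Of 11 lysosomal membrane genes, 3 were higher in macrophages, and the median difference was 1.70. cd68 (ENSDARG00000055504), a macrophage marker in mammals that the deposited tables describe as LAMP1, stood at 131 to 770 RPKM in macrophages (median 359). It was 17.8 in endothelial control 2 and at most 0.0895 in the other endothelial libraries. No library overlapped, and the difference was 7.69 ± 1.00 (limma adjusted p = 1.92e-05). By contrast lamp1b (ENSDARG00000092610), described by the same words, had 0 to 17.4 RPKM in macrophages (median 6.90) and 0.0151 to 88.0 in endothelial cells (median 14.1). Its difference was -1.12 ± 1.19 and cd68 exceeded it in 6 of 6 macrophage but 2 of 6 endothelial libraries.

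scarb2c (ENSDARG00000089844) belongs to the family of LIMP-2, which in mammals carries glucocerebrosidase to lysosomes. It was at 0 in macrophage arrival 1 and at 8.36 to 50.9 RPKM in the other 5 macrophage libraries, against 0.0178 in 1 endothelial library and 0 in the other 5. The difference was 4.11 ± 1.07 (limma adjusted p = 0.0292). A second gene described as lysosome membrane protein 2, ENSDARG00000059295, had the opposite sign, with 0.0251 to 58.0 RPKM in macrophages (median 10.1) and 16.1 to 157 in endothelial cells (median 62.5). It had the smallest p of all members on the endothelial side and did not pass (-2.67 ± 1.13, limma adjusted p = 0.323). SLC66A1 (ENSDARG00000043624), which exports cationic amino acids from lysosomes, had 0.714 to 50.9 RPKM in macrophages (median 16.5) and at most 0.115 in endothelial cells, without overlap (3.74 ± 1.00, limma adjusted p = 0.035).

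The remaining membrane genes did not pass. LAMP2 (ENSDARG00000014914), a main glycoprotein of the lysosomal membrane, had 5.40 to 189 RPKM in macrophages (median 78.2) and 0.0131 to 39.8 in endothelial cells (median 16.0), a difference of 3.21 ± 1.23 (limma adjusted p = 0.235). glmp, a glycosylated lysosomal membrane protein, had 0 to 119 RPKM in macrophages, against 0 to 25.3 in endothelial cells (3.40 ± 1.24, limma adjusted p = 0.198). LAPTM4A, a membrane protein of late endosomes, had medians of 63.4 RPKM in macrophages, against 52.9 in endothelial cells, and the ranges overlapped. LAPTM4B was at 1.5 to 65.0 RPKM in macrophages and highest in endothelial arrival 2 and traction 1, at 282 and 244 RPKM.

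None of the 6 genes of BLOC-1, a complex that builds lysosome-related organelles such as pigment granules, differed by the test (median 1.11). BLOC1S6 (ENSDARG00000042933) was the most abundant, at 1.68 to 564 RPKM in macrophages (median 247) and 41.8 to 154 in endothelial cells (median 82.8). BLOC1S2, BLOC1S1 and bloc1s4 had medians of 25.3, 59.2 and 41.5 RPKM in macrophages against 18.9, 27.6 and 4.98 in endothelial cells. The trafficking regulator LYST, whose loss gives giant lysosomes in mammals, had 0.00433 to 6.97 RPKM in macrophages, against 0.00295 to 9.87 in endothelial cells. GBA2 stayed at or below 1.36 RPKM in all libraries.

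The V1 sector had high levels in macrophages but 1 call among 12 tested genes. That gene was 1 of the copies of ATP6V1A, the catalytic subunit. ATP6V1A (ENSDARG00000076318) was at 0.892 RPKM in macrophage control 2 and at 48.0 to 165 in the other 5 macrophage libraries, against 0 to 2.58 in endothelial cells (median 0.0288). The groups overlapped through that macrophage library, and the difference was 5.15 ± 1.12 (limma adjusted p = 0.00708). The other copy, ENSDARG00000034534, had a like level in macrophages, 48.2 to 178 RPKM, but stood at 107 and 153 in endothelial arrival 2 and traction 1 and at 0 to 13.7 in the other 4. It did not pass (3.05 ± 1.13, limma adjusted p = 0.209).

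The median log2 difference of the 12 V1 genes was 3.04, and 11 were above 0. ATP6V1G1 (ENSDARG00000022315), a subunit of the outer stalks, had the highest median of all members in macrophages, 1062 RPKM, with a range of 334 to 1245. In endothelial cells it was at 839 and 625 RPKM in arrival 2 and traction 1, and at 1.67 to 142 in the other 4. The difference missed the threshold (3.08 ± 0.89, limma adjusted p = 0.0618). The stalk subunit atp6v1e1b had a macrophage median of 506 RPKM, and stood at 469 and 332 in the same pair of endothelial libraries and 9.64 to 78.7 in the others. The rotor subunit ATP6V1F had a macrophage median of 445 RPKM, and stood at 369 and 182 in that pair and 0.113 to 86.5 in the others. ATP6V1B2 (ENSDARG00000013443), the nucleotide-binding partner of subunit A, had a macrophage median of 245 RPKM, and stood at 139 and 155 in that pair and 0 to 51.9 in the others. The pair was thus the highest of the endothelial libraries for each gene, and the limma adjusted p were 0.123, 0.107 and 0.119.

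Of the other V1 subunits, none passed the test. ATP6V1C1 (ENSDARG00000035880), a subunit that ties the sectors together, had 49.9 to 213 RPKM in macrophages (median 136) and 0.0598 to 68.1 in endothelial cells (median 17.6), a difference of 3.5 ± 1.12 (limma adjusted p = 0.11). Its second copy, ENSDARG00000023967, had 5.75 to 110 RPKM in macrophages, against 8.18 to 84.2 in endothelial cells, and the ranges overlapped almost wholly. ATP6V1D, part of the central rotor, had 58.1 to 268 RPKM in macrophages, against 0.0528 to 117 in endothelial cells, highest there in traction 1 (3.02 ± 1.02, limma adjusted p = 0.141). ATP6V1H, a regulator of the assembled pump, had 46.0 to 130 RPKM in macrophages, against 1.43 to 76.0 in endothelial cells, where arrival 2 and traction 1 were again highest. Without the photoreceptor libraries and without endothelial control 2, limma called ATP6V1G1, ATP6V1F, ATP6V1C1 (ENSDARG00000035880) and ATP6V1B2 (ENSDARG00000013443) higher in macrophages, with differences of 4.87, 6.24, 6.10 and 6.45 (limma adjusted p = 0.0309, 0.0354, 0.0139 and 0.011), in a fit that called 1.46% of all tested genes. Leaving out the photoreceptor libraries alone gave 0 V1 calls, and the limma adjusted p of these genes were 0.081, 0.142, 0.065 and 0.0779. The call of ATP6V1A (ENSDARG00000076318) ended in both fits. Its difference was 4.81 without the photoreceptor libraries and 5.00 without endothelial control 2 as well.

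**Figure D3:**
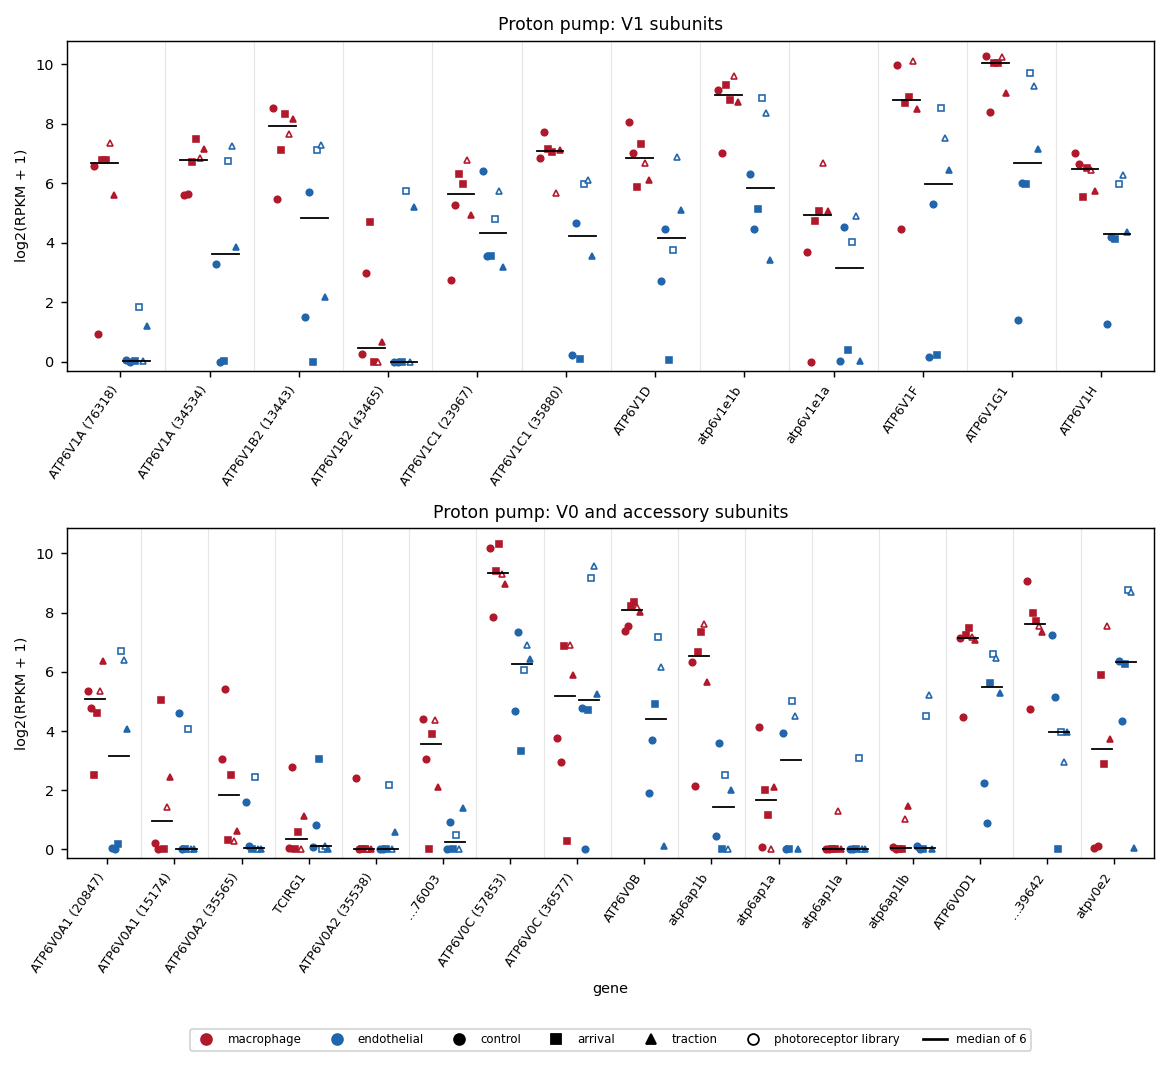
Levels of the tested proton pump genes are shown as log2(RPKM + 1), 1 point per library, macrophages in red left of endothelial cells in blue, with open symbols for the photoreceptor libraries, shapes for the stages (circle control, square arrival, triangle traction) and a bar at the median of 6. For ATP6V1G1, atp6v1e1b, ATP6V1F and the first ATP6V1B2 gene the 2 open blue symbols lie within the range of the macrophage points. The filled blue symbols lie below the open blue ones. For ATP6V1F and that ATP6V1B2 gene the highest filled blue symbol lies above the lowest macrophage point.

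Of the 16 V0 and accessory genes, 3 were higher in macrophages, with a median difference of 0.71, the smallest of the 4 main classes. ATP6V0C (ENSDARG00000057853), the proteolipid whose copies form the proton-carrying ring, had 229 to 1289 RPKM in macrophages (median 652) and 9.13 to 161 in endothelial cells (median 75.6). Its ranges did not overlap and it differed by 3.55 ± 0.79 (limma adjusted p = 0.00917). ATP6V0B (ENSDARG00000031681), a second proteolipid of the ring, had 166 to 329 RPKM in macrophages (median 272) and 0.0903 to 143 in endothelial cells (median 20.4). It did not overlap either and differed by 3.95 ± 1.00 (limma adjusted p = 0.0237). atp6ap1b (ENSDARG00000037153), the accessory subunit S1, had 3.47 RPKM in macrophage control 2 and 49.0 to 196 in the other 5, against 0 to 11.1 in endothelial cells (4.54 ± 1.14, limma adjusted p = 0.0237).

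For some of the paired subunits 1 gene stood above its counterpart in all or most macrophage libraries, but not in most endothelial ones. The second ATP6V0C gene (ENSDARG00000036577) was at 0.214 to 118 RPKM in macrophages, at 578 and 760 in endothelial arrival 2 and traction 1, and at 0.0183 to 37.1 in the other endothelial libraries. The first copy exceeded it in 6 of 6 macrophage and 2 of 6 endothelial libraries. Subunit S1 showed the same counts, with atp6ap1b above atp6ap1a in 6 of 6 macrophage and 2 of 6 endothelial libraries. Subunit e 1 (ENSDARG00000039642) exceeded subunit e 2 (atpv0e2) in 5 of 6 macrophage and 3 of 6 endothelial libraries. atpv0e2 (ENSDARG00000059057) had a median of 9.40 RPKM in macrophages, against 79.0 in endothelial cells, where it was again highest in arrival 2 and traction 1 (430 and 414 RPKM), and its difference of -2.37 ± 1.35 did not pass (limma adjusted p = 0.53). In endothelial arrival 2 and traction 1, both photoreceptor libraries, the second gene of each of these pairs stood above the first. Among the other endothelial libraries both orders occurred for each pair. For subunits a1, a2, B2, C1 and E1 the same gene of a pair led in most libraries of both cell types. It did so in 5, 6, 6, 5 and 6 of 6 macrophage and 4, 4, 4, 4 and 5 of 6 endothelial libraries. The ATP6V1A gene ENSDARG00000076318 exceeded its copy in 3 of 6 and 1 of 6, and ENSDARG00000076003 exceeded TCIRG1 in 6 of 6 and 3 of 6. Whether these orders differ between the cell types was not tested.

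The membrane subunit a, which forms the path of the protons, was spread over several genes at modest levels. ATP6V0A1 (ENSDARG00000020847) had 4.66 to 81.4 RPKM in macrophages (median 33.2), against 103 and 83.9 in endothelial arrival 2 and traction 1 and at most 15.6 in the other 4. The gene described as isoform a3, which serves the ruffled border of mammalian osteoclasts, was ENSDARG00000076003. It had 0.0174 to 20.1 RPKM in macrophages, against at most 1.66 in endothelial cells. TCIRG1, described as isoform a2, had at most 5.97 RPKM in macrophages and 7.32 in endothelial cells. ATP6V0D1 (ENSDARG00000069090), the subunit that joins the sectors, had medians of 141 RPKM in macrophages, against 43.6 in endothelial cells (2.24 ± 0.92, limma adjusted p = 0.298). The accessory gene atp6ap1lb was at most 1.75 RPKM in macrophages and reached 21.7 and 36.4 in endothelial arrival 2 and traction 1. Its difference of -1.21 ± 0.97 turned to 0.33 without the photoreceptor libraries.

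The photoreceptor libraries carried most of the endothelial proton pump signal. The V1 genes summed to 1064 to 4032 RPKM in macrophages, to 2157 and 1790 in endothelial arrival 2 and traction 1 and to 124 to 365 in the other 4 endothelial libraries. The V0 and accessory genes summed to 552 to 2216 RPKM in macrophages, to 1521 and 1600 in that endothelial pair and to 196 to 332 in the other 4. For both classes the pair lay within the macrophage range. Cathepsins did not follow this pattern, since they summed to 2951 to 13913 RPKM in macrophages, to 274 and 253 in that pair and to 150 to 719 in the other 4. Endothelial markers were lowest in these libraries, at 615 and 281 RPKM.

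**Figure D4:**
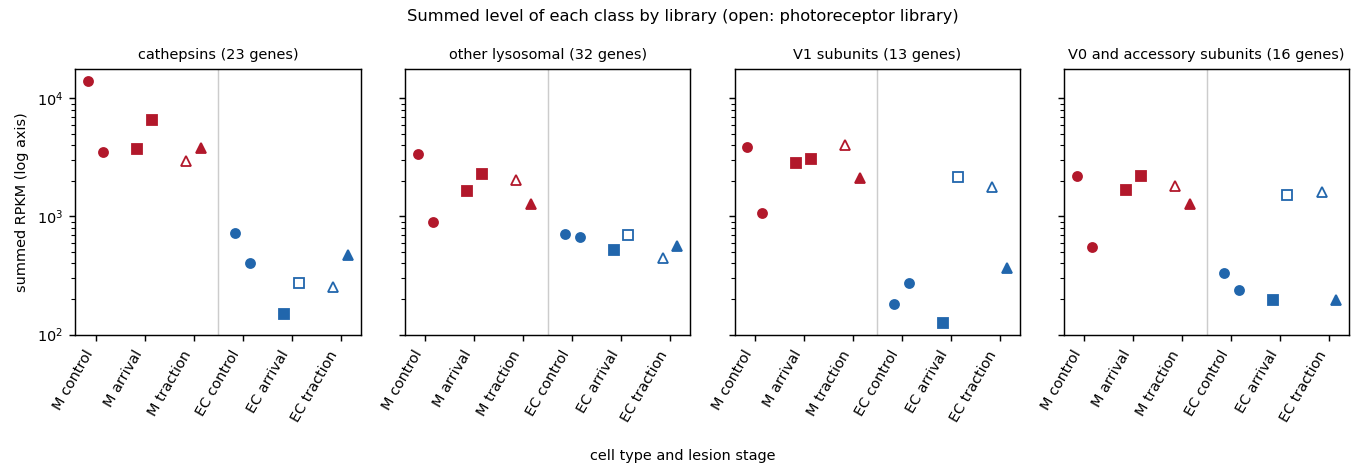
Summed RPKM of each class per library is shown on a log axis, macrophages (M, red) left of endothelial cells (EC, blue), with open symbols for the photoreceptor libraries. Sums of cathepsins and of other lysosomal genes lie higher in every macrophage library than in any endothelial one, while V1 and V0 sums of endothelial arrival 2 and traction 1 reach the macrophage range.

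Without the 3 photoreceptor libraries, 7 of 73 members were higher in macrophages by limma, against 0.999% of all tested genes in either direction. They were ctsl.1, ctss2.1, ctss2.2, CTSB, cd68, ENSDARG00000078382 and ATP6V0B (limma adjusted p of 0.0445 for ATP6V0B and at most 0.00963 for the other 6). The median difference of the V1 genes was 4.17 in this smaller fit and that of the V0 and accessory genes 1.59, with 0 and 1 calls. For the 12 calls that ended, the limma adjusted p ran from 0.0551 for CTSZ to 0.367 for SLC66A1. Leaving out endothelial control 2 as well gave 13 calls (1.46% of all tested genes), and leaving out endothelial control 2 alone gave 20 (2.96%). By voom on recovered reads 21 members were called, all higher in macrophages, against 6.24% of all tested genes. The limma count was 12 without macrophage control 1 and 11 without macrophage arrival 2, where 1.67% and 1.29% of all tested genes were higher in macrophages, against 2.15% with all libraries.

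Several calls near the threshold ended when 1 library was left out. Such fits called 1.29% to 2.34% of all tested genes higher in macrophages, against 2.15% with all libraries. The call of scarb2c ended without any 1 of 11 libraries, and that of SLC66A1 without any of 9. Those of atp6ap1b and si:ch211-122f10.4 ended without any of 8 (limma adjusted p at most 0.123). ATP6V0B lost its call without any of 7 libraries, at limma adjusted p of 0.0514 to 0.0876. CTSD missed the threshold without macrophage control 1 (0.0987), macrophage arrival 2 (0.075), macrophage traction 1 (0.0505) or endothelial control 1 (0.0636). ctsla missed it without macrophage control 1 or traction 2 (limma adjusted p = 0.0549 for both), and ATP6V0C without macrophage arrival 2 (0.0568). napsa missed it without macrophage arrival 1 (0.0622), macrophage arrival 2 (0.0677), endothelial control 1 (0.0577) or endothelial arrival 2 (0.0516). The 6 calls of ctsl.1, ctss2.1, ctss2.2, CTSB, cd68 and ENSDARG00000078382 held under every setting tried.

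Other genes of the lysosome, taken from hand-written lists that left out the members, gave calls on the macrophage side only. The lists were chosen with earlier results of these data known. Of all tested genes 2.15% were higher in macrophages and 0.676% lower, with a median difference of 0.19. Of 35 further lysosomal hydrolases, 9 were higher in macrophages and 0 lower (median 2.76). They included SCPEP1, a serine carboxypeptidase, at 131 to 369 RPKM in macrophages and no more than 25.5 in endothelial cells (7.10 ± 1.03, limma adjusted p = 7.98e-05). PSAP, which encodes the activators of sphingolipid breakdown, was at 440 to 2078 RPKM in macrophages, against 0.411 to 121 in endothelial cells, and ASAH1 (ENSDARG00000034817), a ceramidase, at 105 to 305 and at most 25.2. Of 37 genes for membrane transport and cargo sorting, 6 were higher and 0 lower (median 2.08), led by the cholesterol carrier NPC2 (4.87 ± 0.93, limma adjusted p = 0.00215), grna, a progranulin gene, (4.76 ± 1.07, 0.00917) and cln3 (4.20 ± 1.01, 0.0168). None of 9 transcription factor and nutrient-sensing genes that govern lysosome formation passed (median 1.32), and none of 7 cathepsin inhibitors did (median 1.40).

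Between lesion stages no member passed limma's test, in either cell type. The stage comparisons asked how macrophages and vessel ends differed as macrophages reached the lesion and then pulled. With limma 0 of 73 members were called in each of the 6 stage comparisons, where 0% of all tested genes were, or 0.00568% for macrophage traction against arrival. In macrophages, 0 members had an unadjusted limma p under 0.05 at arrival against control, 5 during traction against control and 2 during traction against arrival, against 4.16%, 5.96% and 3.36% of all tested genes. In endothelial cells there were 6, 7 and 3 members, against 4.08%, 3.8% and 3.38%. With 2 libraries a side the smallest exact permutation p is 0.333, and no such test is reported. By voom 0 members were called at macrophage arrival against control, during macrophage traction against arrival and during endothelial traction against arrival, where 1.02%, 1.44% and 1.33% of all tested genes were. voom called 2 members each during macrophage traction, at endothelial arrival and during endothelial traction against control. There it called 2.23%, 1.71% and 1.54% of all tested genes. Leaving out the photoreceptor libraries leaves 1 library each for endothelial arrival, endothelial traction and macrophage traction, which is assumed to vary like the other groups, so counts from that fit say little about these stages. It called 0 members in all 3 endothelial comparisons (0.608% of all tested genes at arrival against control, 0% during traction against control and 1.08% during traction against arrival) and 0 at macrophage arrival against control (0%). It also called ENSDARG00000052350, atp6ap1lb and GBA2 higher during macrophage traction than in control and at arrival (5.8% and 5.75% of all tested genes). These genes stood at 2.57, 1.75 and 0.565 RPKM in macrophage traction 2, the single traction library left. Leaving out endothelial control 2 as well leaves 1 library in every endothelial group, and the same 3 genes were called in both macrophage comparisons (10.7% of all tested genes against control and 10.3% against arrival). That fit also called ATP6V0B at endothelial arrival against control (2.98, limma adjusted p = 0.0338) and during endothelial traction against arrival (-4.78, limma adjusted p = 0.0161), where 5.79% and 5.31% of all tested genes were called. It called 0 members during endothelial traction against control (5.61%) and at macrophage arrival against control (0%).

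**Figure D5:**
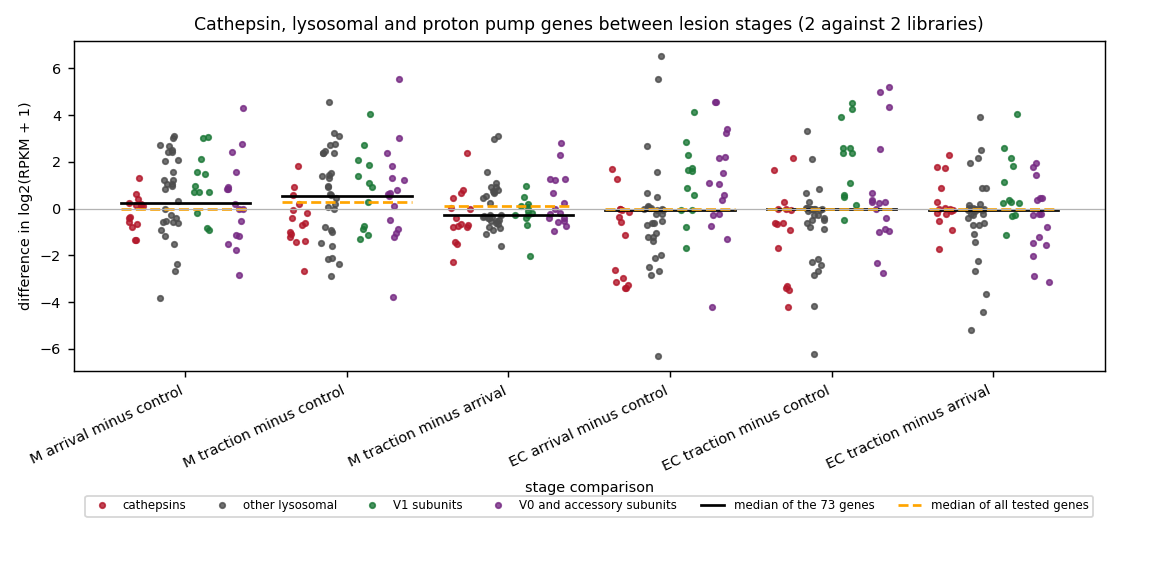
Each point is the difference of 1 tested gene between 2 stages on the log2(RPKM + 1) scale, coloured by class, with a black bar for the median of the 73 genes and a dashed orange one for all tested genes. In endothelial cells (EC) pump subunits reach 4.56 at arrival against control and 5.20 during traction against control, and cathepsins go down to -4.22 during traction, none of them called by limma.

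In macrophages the members' median difference was 0.26 at arrival against control, 0.53 during traction against control and -0.26 during traction against arrival, where all tested genes had 0, 0.26 and 0.11. Summed cathepsins were 13913 and 3535 RPKM in control, 3727 and 6575 at arrival and 2951 and 3781 during traction. Macrophage control 1 stood apart, and the other 5 libraries lay between 2951 and 6575. ctsl.1 stood at 4284 and 438 RPKM in control, 686 and 1579 at arrival and 108 and 432 during traction, with a difference of -2.66 ± 1.66 for traction against control (limma adjusted p = 0.849). CTSB stood at 2821 and 1359 RPKM in control, 492 and 1195 at arrival and 653 and 856 during traction. All 4 lesion values of CTSB lay below both control values, but how many of all tested genes lie apart in this way was not counted. voom called CTSB lower during traction than in control (-1.61 ± 0.44, voom adjusted p = 0.0371).

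Some genes at low levels in control macrophages had higher values at the lesion, without a limma call. The PPT2 thioesterase gene ENSDARG00000070883 was at 0 in both control libraries, at 0 and 7.91 RPKM at arrival and at 25.1 and 20.1 during traction. Its difference for traction against control was 4.56 ± 1.46 (limma adjusted p = 0.541), and voom called it higher (voom adjusted p = 0.0319), 1 of 2 members that voom called there against 2.23% of all genes. atpv0e2, the subunit e 2 gene of the pump, stood at 0.0392 and 0.0904 RPKM in control, 58.2 and 6.43 at arrival and 187 and 12.4 during traction. Its differences from control were 4.30 ± 2.34 at arrival and 5.56 ± 2.34 during traction (limma adjusted p = 1 and 0.804). SLC66A1 stood at 6.32 and 0.714 RPKM in control, 23.2 and 38.3 at arrival and 50.9 and 9.79 during traction. In all 3 genes every lesion library except 1 arrival library of the PPT2 gene exceeded both controls. The share of all tested genes that did so was not counted. CTSO reached 6.17 and 2.84 RPKM during traction, against 0 and 0 at arrival and 0.985 and 0.081 in control (2.39 ± 0.83 for traction against arrival, limma adjusted p = 1). Among macrophage libraries the highest level of atpv0e2, SLC66A1, CTSO and the PPT2 gene was in macrophage traction 1, the photoreceptor library.

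On the lower side, ATP6V0A2 (ENSDARG00000035565), a form of the membrane subunit a, stood at 7.37 and 41.8 RPKM in macrophage control, 0.238 and 4.68 at arrival and 0.208 and 0.534 during traction. All 4 lesion libraries lay below both controls, and the difference for traction was -3.80 ± 1.60 (limma adjusted p = 0.8). BLOC1S2 stood at 101 and 76.0 RPKM in control, 0.05 and 37.3 at arrival and 9.16 and 13.3 during traction, likewise without overlap (-3.80 ± 1.97 at arrival, limma adjusted p = 1). scarb2c was at 44.6 and 46.0 RPKM in control, 0 and 50.9 at arrival and 24.7 and 8.36 during traction. Its difference of -2.69 ± 1.84 at arrival rested on macrophage arrival 1 and was 0.16 without it. How many of all tested genes separate lesion from control like ATP6V0A2 and BLOC1S2 was not counted.

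In endothelial end cells the members' medians were -0.04 at arrival against control, -0.03 during traction against control and -0.05 during traction against arrival, with 0, -0.01 and 0 for all tested genes. The medians of the classes had different signs. The median of the V1 genes was 1.26 at arrival and 2.39 during traction against control, and that of the cathepsins was -0.56 and -0.62. ATP6V1G1 stood at 1.67 and 63.8 RPKM in control, 62.6 and 839 at arrival and 625 and 142 during traction (4.14 ± 1.52 and 4.51 ± 1.52 against control, limma adjusted p = 0.967 and 0.979). ATP6V0D1 stood at 3.72 and 0.837 RPKM in control, 48.8 and 95.7 at arrival and 87.5 and 38.4 during traction, and all 4 lesion libraries exceeded both controls. Its differences were 4.56 ± 1.49 and 4.33 ± 1.49 (limma adjusted p = 0.892 and 0.979). How many of all tested genes separate lesion from control like ATP6V0D1 was not counted. ATP6V0A1 (ENSDARG00000020847) stood at 0.0442 and 0 RPKM in control, 0.14 and 103 at arrival and 83.9 and 15.6 during traction, and voom called it higher during traction (voom adjusted p = 0.0089). The highest endothelial value of each of the 3 genes lay in arrival 2, a photoreceptor library, and the V1 sums outside arrival 2 and traction 1 were 183 and 272 RPKM in control, 124 at arrival and 365 during traction.

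Among lysosomal genes of endothelial cells, 4 chosen by p or level had 1 stage near 0 and another far above it. ifi30a, the thiol reductase, was at 87.8 and 68.7 RPKM in control, at 0 in both arrival libraries and at 6.06 and 30.7 during traction (-6.30 ± 1.99 at arrival, limma adjusted p = 0.829). bloc1s4 was at 0 and 0.0232 RPKM in control, 132 and 65.5 at arrival and 0.945 and 9.01 during traction (6.54 ± 2.04 at arrival, limma adjusted p = 0.824). voom called both at arrival against control (voom adjusted p = 0.00125 and 0.00134), the 2 members it called there against 1.71% of all genes. BLOC1S1 was at 185 and 40.2 RPKM in control, 112 and 14.9 at arrival and 0.0747 and 0.251 during traction (-6.24 ± 2.05 for traction against control, limma adjusted p = 0.979). ACP2, the acid phosphatase, was at 19.4 and 43.1 RPKM in control, 43.9 and 8.59 at arrival and 0.136 and 1.46 during traction. For these 4 genes 1 stage lay apart from another in both libraries. How many of all tested genes lie apart in this way was not counted. Arrival 2 and traction 1 are photoreceptor libraries, and their part in these values was not tested.

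CTSZ was at 46.7 and 6.23 RPKM in endothelial control, 0 and 2.62 at arrival and 0 in both traction libraries. Its difference for traction was -4.22 ± 1.69 (limma adjusted p = 0.979), and voom called it (voom adjusted p = 0.0102), 1 of 2 members called there against 1.54% of all genes. CTSH and CTSK were at 146 and 112 RPKM in endothelial control 1 and at most 0.326 and 0.0257 in the other 5 endothelial libraries. ctss2.1 and cd68 were at 76.2 and 17.8 RPKM in endothelial control 2, which holds macrophage markers, and at most 0.37 and 0.0895 elsewhere in endothelial cells. Summed endothelial cathepsins were 719 and 403 RPKM in control, 150 and 274 at arrival and 253 and 475 during traction, so traction 2 exceeded control 2.

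The change from control differed between the cell types for no member by limma, with 0 of 73 called for arrival and 0 of 73 for traction, where 0% of all tested genes were called. At an unadjusted limma p under 0.05 there were 3 members for each, against 3.57% and 4.2% of all tested genes, and voom called 0 members for each, against 0.0852% and 0.0341%. For arrival the smallest p on the macrophage side was that of ifi30a, with 179 and 55.1 RPKM at macrophage arrival against 595 and 3.42 in macrophage control, and with 0 in both endothelial arrival libraries against 87.8 and 68.7 in endothelial control (7.27 ± 2.82, limma adjusted p = 0.949). On the other side stood bloc1s4 (-7.09 ± 2.88) and LAPTM4B (-7.92 ± 3.27). For traction the smallest p were those of BLOC1S1 (8.61 ± 2.90) and ACP2 (7.38 ± 2.70), and ATP6V1G1 (-4.21 ± 2.15) on the other side (limma adjusted p = 0.953). BLOC1S1 and ACP2 had at most 0.251 and 1.46 RPKM in the endothelial traction libraries. Both had 0 reads in macrophage control 2, the library with the fewest reads, against 2104 and 1270 in macrophage control 1. Without the photoreceptor libraries limma called 2 members for traction, ENSDARG00000052350 and atp6ap1lb, against 4.64% of all tested genes, both resting on the single macrophage traction library left. Without endothelial control 2 as well it called 4, napsa (-5.20, limma adjusted p = 0.0222), GBA2 and the same pair, against 11.8% of all tested genes, and 0 for arrival against 5.05%, with 1 endothelial library per stage.

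In the authors' deposited tables no member had an adjusted p under 0.05 in any stage comparison. At an unadjusted p under 0.05 in the authors' deposited tables, members numbered 0 of 80 at macrophage arrival against control, 1 of 80 during traction against control and 0 of 79 during traction against arrival, where 1.31%, 2.75% and 2.79% of all genes with a p had one. The member was atpv0e2 (p = 0.0359 in the authors' deposited table). For endothelial cells the authors' deposited tables gave such a p to 4 of 80 members at arrival against control, 3 of 80 during traction against control and 1 of 79 during traction against arrival, against 1.31%, 1.32% and 1.63% of all genes. These were bloc1s4, ifi30a, LAPTM4B and CTSK at arrival, ATP6V0A1, CTSZ and CTSK during traction, and LYST between the lesion stages, by the authors' deposited tables.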

How the data were processed

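Levels were measured in 12 Smart-seq2 libraries, 2 for each of 6 groups set by the labelled cell type and lesion stage. Per the submitters' processing notes, the tools were DESeq 1.16.0, HTSeq 0.6.0, TopHat2 2.0.12 and Bowtie2 2.2.3, with no roles stated. The genome build is not given in the sources used here, and gene positions are left out. The authors deposited RPKM for 33737 genes, per the file headers, and nothing in the sources states a further scaling between libraries. Their 6 deposited stage tables hold group means, a signal of counts divided by size factors, and p-values with adjusted p-values. Reads were recovered from the RPKM and these means, 100% of values coming out whole within 0.05 reads, and no per-sample column was left unmapped. They set the filter (in 2 or more libraries a level worth 10 reads at median depth, with 15 reads summed over all), which kept 17613 genes. Reads carry no molecular identifiers, so depth bounds counting error only.

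limma 3.58.1 in R 4.3.3 was fitted to log2(RPKM + 1) over all 12 libraries, with trend and robust variances and Benjamini-Hochberg adjustment over all tested genes at 0.05, two-sided. Differences on this scale understate the change of low genes. A mean per group served the stage comparisons, and stage plus cell type the comparison of macrophages with endothelial cells. The script was tested on simulated data. Members and gene lists were chosen with earlier results of these data known, and the lists of markers and pathway genes were written by hand. Symbols came from a table of Ensembl names and were found for 72 of the 84 members. Named were the 10 members with the smallest p higher in macrophages and 5 lower, 3 on each side of each stage comparison and every called member. Beside these came the 4 most abundant of each class in each cell type and any cathepsin or pump subunit. Other genes named were chosen after their values were seen. Separations between stages among genes named in these ways are no result about the members as a set.

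Alternatives were a pseudocount of 0.1, no filter, quantile normalization, a replicate block, a model without stage, single libraries left out, only the groups compared, limma voom on recovered reads, and the fits without the photoreceptor libraries. voom and the last were chosen after seeing the data.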

Additional observations from a re-analysis of the deposited data

Results flagged for a closer look

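Sets of 6 libraries of 1 cell type were looked at, 48 sets in all, among them those of the 4 class sums and the called genes. In 18 of them 1 library lay far from the rest, with a gap to the next library beyond the critical value of Dixon's test for 6 values. Chance gives about 1 in 20 for independent sets of normally distributed values. These RPKM are skewed, class sums share values with their genes, and a single library above 0, as for scarb2c, is always picked out, so the number is not compared with that rate.

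In all 7 macrophage sets the library was macrophage control 1, and it was the highest. It had 13913 RPKM of summed cathepsins, 4284 of ctsl.1, 3477 of ctsla, 2821 of CTSB, 1379 of CTSD, 418 of CTSZ and 353 of CTSK.

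In endothelial cells 11 sets had such a library. Endothelial control 1 was highest for CTSH (146 RPKM), CTSK (112), CTSZ (46.7), ctsl.1 (1.08) and SLC66A1 (0.115). Endothelial control 2, where macrophage markers summed to 2577 RPKM, was highest for ctss2.1 (76.2), si:ch211-122f10.4 (48.4), napsa (38.3), cd68 (17.8) and ctss2.2 (1.33). Endothelial arrival 2 was the only endothelial library above 0 for scarb2c (0.0178 RPKM). Stage effects of the 2 cell types gave no member whose difference passed limma's test.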

How the results depend on the processing

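With a pseudocount of 0.1, quantile normalization, no stage term and voom, 2.38%, 1.92%, 2.27% and 4.66% of all tested genes were higher in macrophages. The count of 19 members higher in macrophages was 20, 18, 19 and 21 in these fits. It moved to 10 with no filter on low reads, 7 without the 3 photoreceptor libraries, and 11 to 22 with single libraries left out, where 0.862%, 0.647% and 1.29% to 2.34% of all tested genes were higher, against 2.15% in the fit reported. Of 380 values for the 19 called members, 293 kept the call and 87 lost it, all in the same direction. Under every planned setting 10 kept it, and under every setting 6 did. With the replicate number as a block the count was again 19, where 2.19% of all tested genes were higher, and no member was called between stages. Deviations of replicates that shared a number had correlations of -0.211 to 0.14 between groups (15 correlations). With 2 libraries per group, these values cannot tell whether libraries of the same number shared a pool or batch.

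Counts of 0 between stages became 2 by voom for macrophage traction against control, endothelial arrival against control and endothelial traction against control. Of all tested genes voom called 2.23%, 1.71% and 1.54% in these comparisons. Without the photoreceptor libraries ENSDARG00000052350, atp6ap1lb and GBA2 differed by 1.83, 1.42 and 0.617 for macrophage traction against control. Against arrival they differed by 1.72, 1.45 and 0.646. Without endothelial control 2 as well, 1 library was left in every endothelial group. There ATP6V0B differed by 2.98 for endothelial arrival against control and by -4.78 for endothelial traction against arrival. The calls during macrophage traction (ENSDARG00000052350, atp6ap1lb and GBA2) rest on a lone macrophage traction library assumed to vary like the other groups. In the comparisons named, calls rose among all tested genes too, so they are no result about the members as a set. The difference of atp6ap1lb between cell types turned to 0.33 without the photoreceptor libraries and to 0.37 also without endothelial control 2, and was -1.85 to -0.52 with single libraries left out. Single libraries left out gave -5.53 to 0.16 for scarb2c at macrophage arrival against control and -4.37 to 0.34 for ATP6V1B2 (ENSDARG00000043465) during macrophage traction against arrival, both turning without macrophage arrival replicate 1. The cause was not tested. The planned count test was not run because no deposited column holds counts, and voom on recovered reads took its place. Values near 0 beside far higher ones within 1 group are common here, and about 80 cells per sort bound what the depth can resolve.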
